A study of Homo sapiens with 12 samples.

Results

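A set of 42 genes of mitosis and of the G2/M phase of the cell cycle was followed in U937, a human cell line of monocytic character from a blood cancer. It holds 42 of the 19775 genes that could be read on the arrays. Each gene was represented by the probe set annotated to its symbol alone, and where several were, by the one with the highest mean over the 12 arrays. The choice of genes used no measured difference, but it was made with earlier results of these data known. The arrays are Affymetrix 3′ expression arrays, hybridised with RNA amplified from 250 ng of total RNA, and all levels are log2 signals. The 4 groups held 3 arrays each, labelled as biological replicates 1 to 3. EVI1 ATRA cells carried an EVI1 expression vector and were treated with 1 µM all-trans retinoic acid (ATRA) for 24 h. EVI1 DMSO cells carried the same vector and received the solvent DMSO for 24 h. Vector ATRA and vector DMSO cells carried the empty vector and received the same agents for the same time. ATRA is a vitamin A derivative that drives maturation of some leukaemic cells, and EVI1, a product of MECOM, is a DNA-binding zinc finger protein and an oncogene of myeloid leukaemia. The promoter of the vector and the number of clones behind each population were not given in the sources used here.

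Most of these genes are transcribed in late S, G2 and M phases, when the MuvB complex and FOXM1 act on elements called CHR and NF-Y acts on CCAAT boxes, and their transcripts fall when cells leave the cycle. Their products drive entry into mitosis (cyclins, CDK1 and the Polo and Aurora kinases), attach chromosomes to the spindle (kinetochore proteins and kinesins), hold back anaphase until attachment is complete (the BUB and MAD checkpoint), and then separate the chromatids and divide the cell. Maturing myeloid cells stop dividing, so the group is widely used as a readout of proliferation. The arrays measure bulk RNA, so a smaller share of cells in G2/M and less of a transcript per cell cannot be told apart.

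Pairs of arrays of 1 group had correlations of 0.987 to 0.995 across probe sets, and 13401 to 13774 genes an array reached the log2 limit of 5 that was set for testing (on at least 3 arrays). The 5 probe sets of MECOM read 2.61 to 3.60 on all 12 arrays; whether they lie within the insert of the vector is not given in the sources used here, so they do not check the EVI1 label. Of 10 myeloid markers with a probe set of their own, 9 reached the limit, among them PTPRC, SPI1, LYZ, MPO and ELANE, and FCGR1A did not; the log2 of their summed signal was 14.39 to 14.62 in EVI1 ATRA, 14.63 to 14.71 in EVI1 DMSO, 14.39 to 14.58 in vector ATRA and 14.65 to 14.68 in vector DMSO. Of 36 markers of other cell types, 25 reached it, among them CD3E, CD8A, CD79A, PAX5, HBB, KLF1, PF4, ITGA2B and KRT8. The limit of 5 lies below the median of all probe sets on every array (5.29 to 5.35). Reaching it alone thus does not show that a marker is expressed. EPCAM, KRT19, CDH1, MS4A1, CD2, KLRD1, PPBP, COL1A2, COL3A1, CDH5 and KDR did not. Of the fibroblast and endothelial markers, COL1A1, PDGFRB and PECAM1 alone did. Of all 19775 genes, 14080 reached the limit. The log2 of the summed signal of the 7 fibroblast and endothelial markers was 12 to 12.46 in EVI1 ATRA, 10.97 to 11.6 in EVI1 DMSO, 11.16 to 11.65 in vector ATRA and 10.73 to 11.05 in vector DMSO, and that of the other 5 lists lay between 7.28 and 9.13 in every group. The part of these markers in the results was not tested. Samples of the same replicate number deviated together from their group means, so the numbers were taken as pairing the samples across groups. Values from a further model with the replicate number as a block, called the paired fit, are therefore given wherever they change a call.

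The EVI1 ATRA array of replicate 3 stood apart for these genes. It held the lowest of the 12 values, ties included, for 37 of the 41 genes tested, whereas the vector ATRA array of replicate 1 held the highest for 21. The same counts over all tested genes are not given, so these are not read as particular to the set. The median over the 41 genes was 10.58, 10.08 and 9.81 on the EVI1 ATRA arrays of replicates 1, 2 and 3, and 10.48, 10.21 and 10.27 on the EVI1 DMSO arrays. It was 10.72, 10.45 and 10.44 on the vector ATRA arrays and 10.54, 10.19 and 10.41 on the vector DMSO arrays. EVI1 ATRA replicate 3 was thus the lowest of all, and EVI1 ATRA replicate 1 lay among the vector arrays. As a gauge of RNA integrity, the signal of the 3′ over the 5′ control probe set differed on EVI1 ATRA replicate 3 by 0.17 for GAPDH and by 0.51 for ACTB, within the 0.15 to 0.32 and 0.34 to 0.70 of all arrays.

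**Figure D1:**
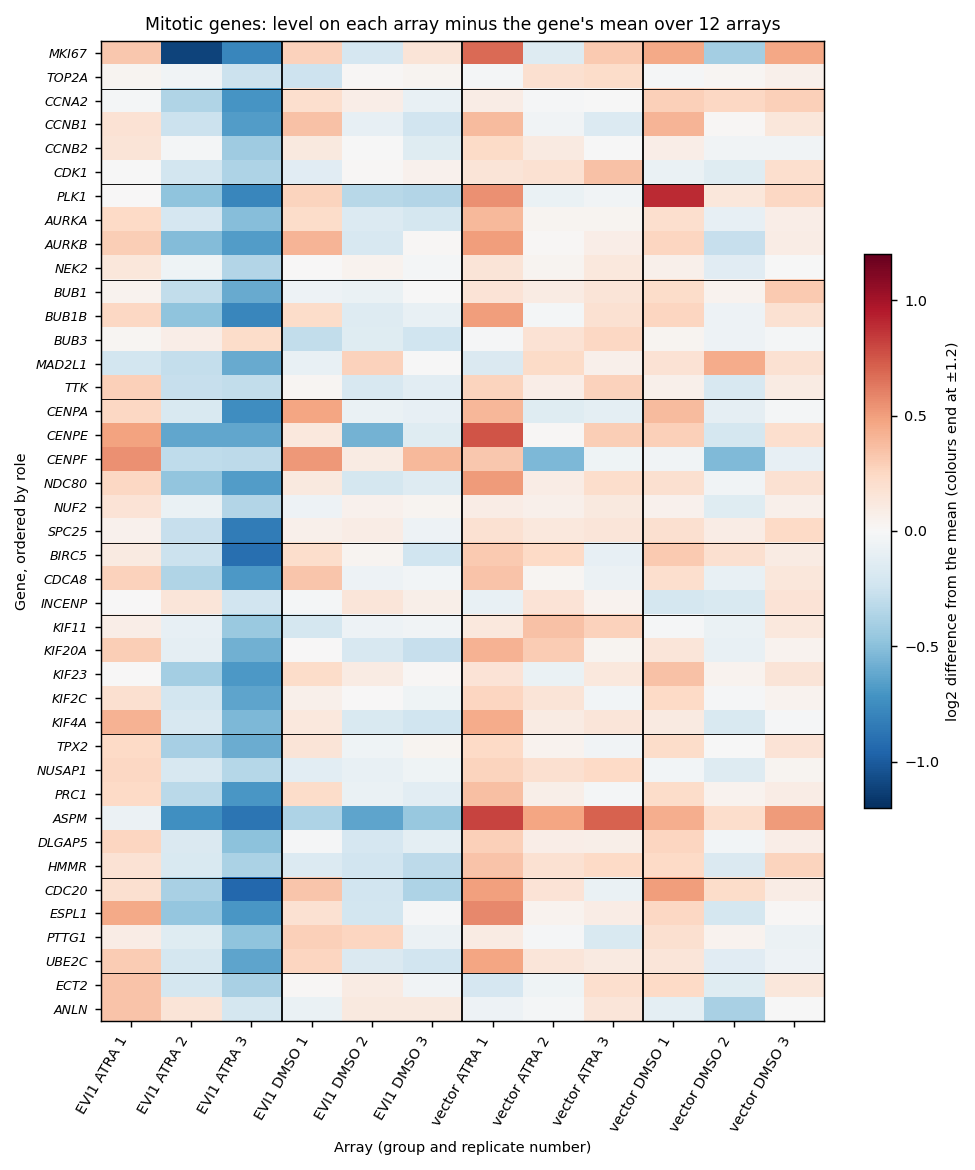
Level of each of the 41 tested genes (lines, grouped by role) on each of the 12 arrays (columns, ordered by group and replicate number), as the log2 difference from the mean of the gene over the 12 arrays; red is above and blue below that mean. The EVI1 ATRA array of replicate 3 is the lowest for 37 of the 41 genes, and ASPM is below its mean on all 6 EVI1 arrays.

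The array signal of most of the genes was high. Averaged over the 12 arrays, the 41 tested genes lay between 6.28 (INCENP) and 12.21 (PTTG1), 39 of them above the median of all tested genes and 28 above 10. CDC25C, the phosphatase that activates CDK1 at entry into mitosis, was the 1 member under the limit: it read 3.90 to 4.87 on the 12 arrays and was not tested. Levels of different genes come from different probe sets, so these values describe array signal and do not rank amounts of transcript.

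Promoters are shown because the elements named above lie in them. RefSeq promoter windows for GRCh38.p14, running from 250 bases before to 50 bases after the start, were given for 36 of the 42 genes and not for AURKA, BIRC5, BUB3, TPX2, TTK and UBE2C. Both strands were searched for the CHR letters TTTGAA or TTCGAA and for CCAAT, whose letters do not overlap. The CHR letters occurred in 28 of the 36 genes (77.8%), against 5336 of all 27305 genes with a window (19.5%). CCAAT occurred in 30 of the 36 (83.3%), against 39.7% of all genes, and more than once in 58.3%, against 12.9%. Both occurred in the same window in 24 of the 36 (66.7%), against 7.85% of all genes. A match is a description of letters and no measure of binding.

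The 250 bases before the start are printed for 7 genes, 5′ to 3′ in the direction of transcription. Capitals mark the CHR letters (TTTGAA, or TTCAAA where the match is on the opposite strand) and the CCAAT box (CCAAT, or ATTGG on the opposite strand). CCNB1 (chr5:69166900-69167149, plus strand), CDK1 (chr10:60778228-60778477, plus strand, 2 starts are listed and the one shown is numbered 2), PLK1 (chr16:23678639-23678888, plus strand) and CDC20 (chr1:43358731-43358980, plus strand) are shown as well studied drivers of mitosis. CCNA2 (chr4:121823884-121824133, minus strand) and MAD2L1 (chr4:120066849-120067098, minus strand) had, among genes with a window, the smallest p-values of ATRA against DMSO when EVI1 and vector cells were averaged. ASPM (chr1:197146670-197146919, minus strand) was added after its values had been seen.
CCNB1: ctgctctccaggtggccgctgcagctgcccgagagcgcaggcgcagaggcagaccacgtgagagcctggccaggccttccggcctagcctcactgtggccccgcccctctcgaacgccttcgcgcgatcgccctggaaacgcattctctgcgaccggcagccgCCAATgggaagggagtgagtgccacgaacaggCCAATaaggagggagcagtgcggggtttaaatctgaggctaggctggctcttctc 
CDK1: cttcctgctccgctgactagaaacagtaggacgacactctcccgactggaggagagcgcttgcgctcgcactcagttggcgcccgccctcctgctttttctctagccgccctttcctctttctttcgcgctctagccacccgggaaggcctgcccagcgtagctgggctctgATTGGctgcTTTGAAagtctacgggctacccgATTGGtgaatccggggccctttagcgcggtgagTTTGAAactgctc 
PLK1: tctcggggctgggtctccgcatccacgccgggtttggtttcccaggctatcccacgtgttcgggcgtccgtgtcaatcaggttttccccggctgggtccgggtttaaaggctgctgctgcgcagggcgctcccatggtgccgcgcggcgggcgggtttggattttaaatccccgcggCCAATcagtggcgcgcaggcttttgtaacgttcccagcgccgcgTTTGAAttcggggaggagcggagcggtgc 
CDC20: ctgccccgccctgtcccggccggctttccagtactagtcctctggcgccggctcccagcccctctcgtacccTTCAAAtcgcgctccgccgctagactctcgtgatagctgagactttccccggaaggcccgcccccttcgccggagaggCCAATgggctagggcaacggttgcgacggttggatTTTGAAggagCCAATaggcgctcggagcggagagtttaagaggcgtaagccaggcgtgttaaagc 
CCNA2: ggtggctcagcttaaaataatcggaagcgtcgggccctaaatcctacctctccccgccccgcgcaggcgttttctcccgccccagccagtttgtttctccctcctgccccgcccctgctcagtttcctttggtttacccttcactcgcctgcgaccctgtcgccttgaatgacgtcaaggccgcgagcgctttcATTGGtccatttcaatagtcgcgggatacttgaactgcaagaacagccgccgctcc 
MAD2L1: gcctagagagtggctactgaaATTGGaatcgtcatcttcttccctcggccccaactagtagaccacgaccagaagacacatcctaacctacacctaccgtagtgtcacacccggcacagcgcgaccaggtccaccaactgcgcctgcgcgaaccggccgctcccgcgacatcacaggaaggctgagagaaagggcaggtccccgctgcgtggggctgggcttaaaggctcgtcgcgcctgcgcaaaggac 
ASPM: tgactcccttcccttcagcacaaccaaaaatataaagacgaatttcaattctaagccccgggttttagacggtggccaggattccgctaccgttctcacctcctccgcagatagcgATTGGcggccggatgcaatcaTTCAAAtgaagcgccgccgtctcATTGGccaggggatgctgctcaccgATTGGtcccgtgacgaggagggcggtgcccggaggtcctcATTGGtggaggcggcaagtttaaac

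The ASPM window holds CCAAT 4 times and the CHR letters once, at position -113 counted from the start. The letters begin at -29 in PLK1, at -178 and -65 in CDC20 and at -69 and -13 in CDK1, with a further match at 10 in CDK1 and one at 25 in MAD2L1, past the bases shown. They do not occur in the windows of CCNB1 and CCNA2 in these spellings.

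Under ATRA, EVI1 cells had lower levels of nearly the whole set than vector cells. The difference was negative for 39 of the 41 genes, with a median of -0.38 on the log2 scale, against a median of -0.01 and 52.0% negative for all 14080 tested genes. ASPM, a spindle pole protein that keeps the spindle focused and oriented, differed most (-1.22 ± 0.19). Here and below, ± with a difference is the SE of the fit of group means, also where a paired call is given. The median SE over the 41 genes was 0.18 in that fit and 0.12 in the paired fit. ASPM was the 1 gene called in the fit of group means (limma adjusted p = 0.00447). That is 1 of 41 lower and 0 higher, where 5.61% of all genes were called, 2.33% lower and 3.28% higher. At an unadjusted p under 0.05 there were 14 genes. The share of all genes at that unadjusted threshold is not given for any comparison, so such counts are not read as results about the genes. In the paired fit 21 of the 41 were lower and 0 higher, where 25.3% of all genes were called, 12.3% lower and 13.0% higher. The 21 are MKI67, CCNA2, CDK1, CDC20, PLK1, AURKB, BUB1, BUB1B, MAD2L1, CENPE, BIRC5, KIF11, KIF20A, KIF23, PRC1, NDC80, SPC25, ESPL1, UBE2C, ASPM and HMMR, with differences of -1.22 to -0.38.

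The size of this difference varied by replicate number. EVI1 minus vector under ATRA had a median over the 41 genes of -0.12 at replicate 1, -0.37 at replicate 2 and -0.63 at replicate 3, with 32, 39 and 41 genes negative. It was negative at all 3 numbers for 32 of the 41, against 28.7% of all genes. The arrays of the groups did not overlap, with EVI1 ATRA lower, for 8 of the 41 (CCNA2, CDK1, BUB1, MAD2L1, KIF11, SPC25, ASPM and HMMR), against 9.03% of all genes. Single arrays decided the count. The 21 calls of the paired fit became 3 without EVI1 ATRA replicate 3, 4 without EVI1 ATRA replicate 2, 4 without vector ATRA replicate 3 and 7 without vector ATRA replicate 2, and 31 without EVI1 ATRA replicate 1. The fit of group means called 26 genes without EVI1 ATRA replicate 1 and 1 without any other single array. The share of all genes called with an array left out is not given for any comparison. Such counts are thus not read as particular to the set. The median was -0.20 without EVI1 ATRA replicate 3 and -0.55 without EVI1 ATRA replicate 1.

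**Figure D2:**
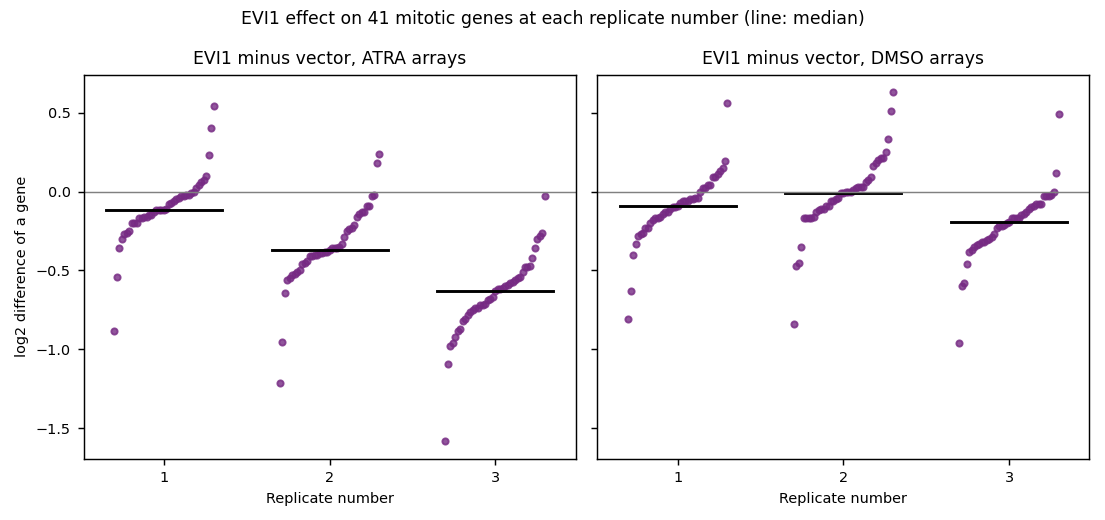
EVI1 minus vector difference (log2, vertical axis) of each of the 41 genes at each replicate number (horizontal axis), for the ATRA arrays (left) and the DMSO arrays (right); each point is 1 gene, sorted by size, and the bar is the median. Under ATRA the medians are -0.12, -0.37 and -0.63 at replicates 1, 2 and 3, and under DMSO -0.09, -0.01 and -0.19.

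ATRA in EVI1 cells went with lower levels of most of the genes, few of which passed the test. The difference was negative for 36 of the 41 genes, against 53.8% of all genes, with a median of -0.22 (all genes -0.02). The fit of group means called 1 gene, BUB3, a checkpoint protein, which was higher (0.34 ± 0.10; limma adjusted p = 0.0439), where 15.1% of all genes were called, 7.45% higher and 7.66% lower. The call held without EVI1 ATRA replicate 1 or vector ATRA replicate 1 and was lost without any other single array. At an unadjusted p under 0.05 there were 4 of the 41, a threshold at which the share of all genes is not given. The paired fit called BUB3 as higher and 7 genes as lower (MKI67, CCNA2, PLK1, AURKB, MAD2L1, KIF23 and PTTG1), where 35.7% of all genes were called, 16.3% higher and 19.4% lower. The share of the set called lower is near that of all genes. The 8 paired calls became 3 without EVI1 ATRA replicate 3, 4 without EVI1 DMSO replicate 2, 5 without EVI1 DMSO replicate 3 and 20 without EVI1 ATRA replicate 1. The median was -0.01 without EVI1 ATRA replicate 3 and -0.43 without EVI1 ATRA replicate 1. By replicate number it was 0.08, -0.16 and -0.43, and 12 of the 41 genes were lower at all 3 numbers, against 31.1% of all genes, and 1 was higher at all 3, against 26.9%. The arrays did not overlap for BUB3, which was higher (13.0% of all genes), and for MAD2L1 and KIF23, which were lower (14.5%). This comparison and the one of EVI1 with vector under ATRA both rest on the 3 EVI1 ATRA arrays.

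In vector cells no gene of the set passed the threshold with ATRA in the fit of group means. The limma fit of group means called 0 of 41, with 0 at an unadjusted p under 0.05, where 3.52% of all genes were called, 2.00% higher and 1.52% lower. The paired fit called 1, PLK1, as lower (-0.28; adjusted p = 0.0376), where 20.0% of all genes were called and 10.1% were lower. The median difference was 0.11 (all genes -0.00333) and 13 of the 41 were negative, against 50.3% of all genes. By replicate number the median was 0.10, 0.15 and -0.01, with 7 of the 41 genes lower at all 3 numbers (27.4% of all genes) and 14 higher (25.9%). The arrays did not overlap for NUSAP1, which was higher (12% of all genes), and for CCNA2, which was lower (11.4%). The largest differences were those of NUSAP1 (0.29 ± 0.13), PLK1 (-0.28 ± 0.27) and ASPM (0.28 ± 0.19).

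Averaged over both cell populations, ATRA raised BUB3 (0.24 ± 0.07; limma adjusted p = 0.0288) and lowered CCNA2 (-0.34 ± 0.11; 0.0380) and MAD2L1 (-0.33 ± 0.11; 0.0434). That is 3 of 41, where 22.4% of all genes were called, 11.1% higher and 11.3% lower. All 3 calls held without EVI1 ATRA replicate 1, and each was lost without EVI1 ATRA replicate 2 or 3, any vector DMSO array or some of the others. The paired fit added PLK1, KIF23 and PTTG1 as lower, 6 in all, where 40.6% of all genes were called, 19.2% higher and 21.4% lower. The share called in the set was below that of all genes in both fits. The difference between the ATRA effects in EVI1 and vector cells, the interaction, was negative for 39 of the 41 genes, against 54.5% of all genes. The interaction had a median of -0.25 (all genes -0.02) and passed the limma threshold for 0, in the paired fit too. It passed for 0.00% of all genes as well, and at an unadjusted p under 0.05 for 1 of the 41, CDK1 (-0.41 ± 0.18). Its largest values were those of MKI67 (-0.71 ± 0.50), AURKB (-0.55 ± 0.36) and CENPF (-0.49 ± 0.37). The median was -0.08 without EVI1 ATRA replicate 3 and -0.46 without EVI1 ATRA replicate 1. The ATRA effects on these genes were thus not shown to differ between EVI1 and vector cells.

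With DMSO, EVI1 cells differed from vector cells in few of the genes. ASPM was lower (-0.87 ± 0.19; limma adjusted p = 0.0482), 1 of 41 where 1.21% of all genes were called, 0.682% lower and 0.533% higher. The call held without EVI1 ATRA replicate 1 or 3 and was lost without any other single array. The paired fit also called PLK1 as lower (-0.57; adjusted p = 0.00282) and CENPF as higher (0.56; 0.0351), 3 of 41 where 7.19% of all genes were called, 2.99% lower and 4.20% higher. At an unadjusted p under 0.05 the fit of group means had 2 genes, ASPM and HMMR. The median was -0.09 (all genes 0.02), with 33 of the 41 negative (45.1% of all genes) and 18 lower at all 3 replicate numbers (18.5% of all genes). The groups did not overlap, with EVI1 lower, for CCNA2, BUB1, BUB3 and ASPM, 4 of 41 against 6.35% of all genes, and with EVI1 higher for CENPF, 1 of 41 against 8.23%.

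**Figure D3:**
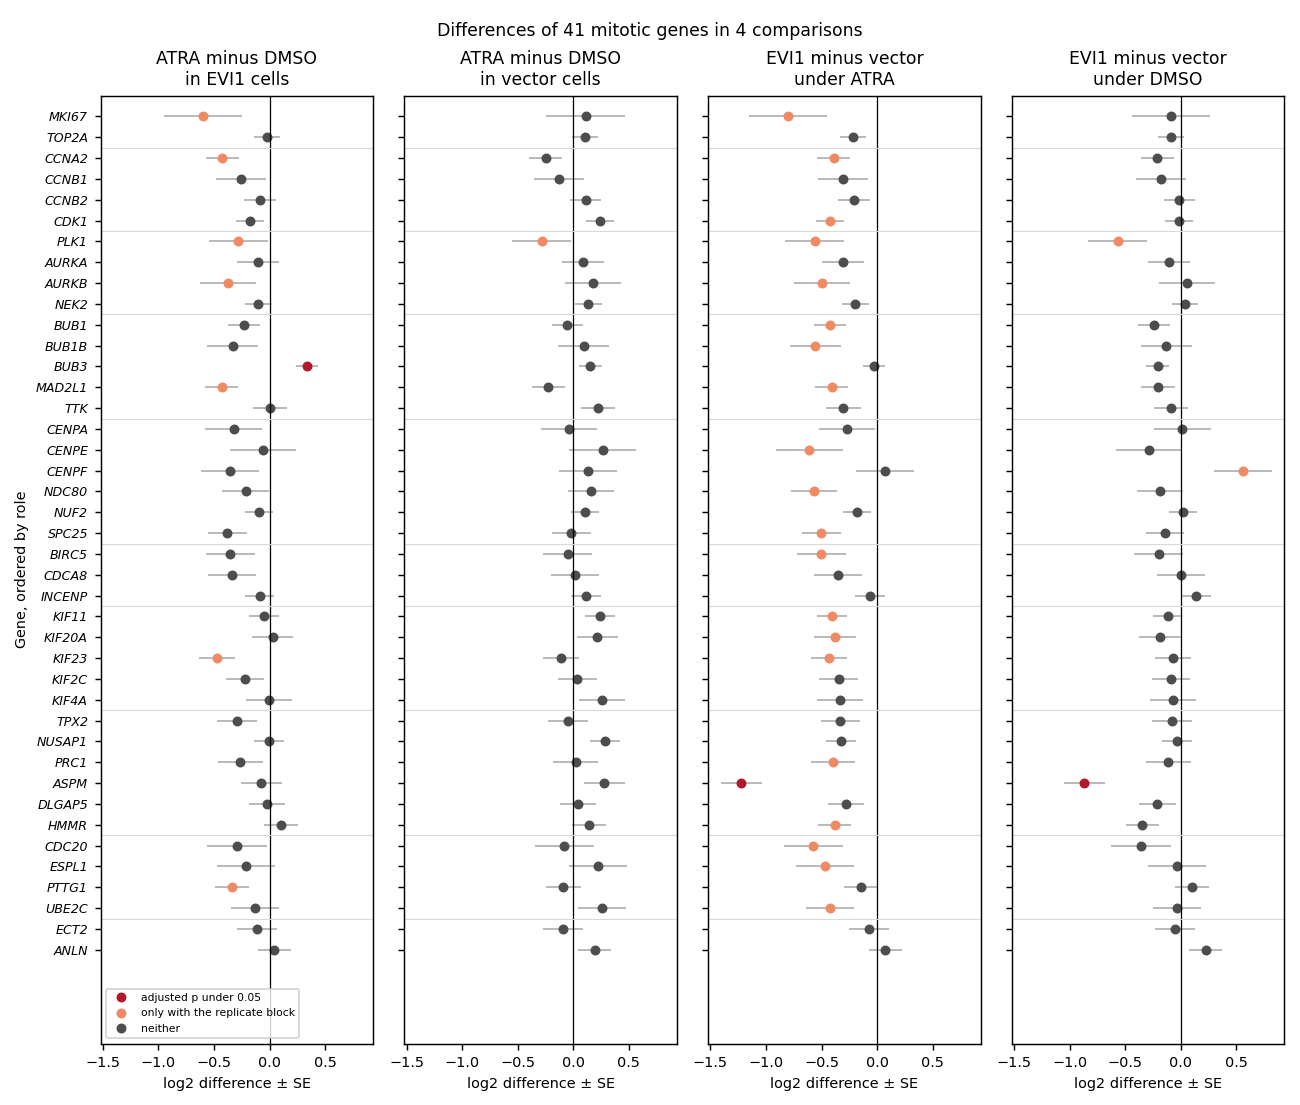
Log2 difference ± SE (horizontal axis) of the 41 genes (vertical axis, ordered by role) in 4 comparisons: ATRA minus DMSO in EVI1 cells and in vector cells, and EVI1 minus vector under ATRA and under DMSO. The SE of every point is that of the fit of group means. Dark red points passed an adjusted p of 0.05 in the fit of group means, orange points in the paired fit alone; the panel of EVI1 minus vector under ATRA holds 21 genes that passed in either fit, all to the left of 0.

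The spindle assembly factors build and focus the mitotic spindle, and ASPM led them. In every list of 3 values that follows, the order is replicate 1, 2 and 3. ASPM levels (probe set 219918_s_at) were 9.41, 8.75 and 8.61 in EVI1 ATRA, 9.11, 8.85 and 9.03 in EVI1 DMSO, 10.29, 9.96 and 10.19 in vector ATRA and 9.92, 9.69 and 9.99 in vector DMSO. All 6 EVI1 values lay below all 6 vector values, with group means of 8.92 ± 0.43 in EVI1 ATRA, 9.0 ± 0.13 in EVI1 DMSO, 10.15 ± 0.17 in vector ATRA and 9.87 ± 0.16 in vector DMSO (SD, n = 3 each). EVI1 minus vector, by replicate number, was -0.88, -1.21 and -1.58 under ATRA and -0.81, -0.84 and -0.96 under DMSO. Adjusted p was 0.000398 under ATRA and 0.00399 under DMSO in the paired fit. Group differences held 87.1% of the variance of ASPM over the 12 arrays and replicate numbers 7.11%. Both other probe sets of ASPM read lower in EVI1 cells too: 239002_at averaged 4.55 in EVI1 ATRA against 5.55 in vector ATRA, and 4.65 in EVI1 DMSO against 5.54 in vector DMSO, and 232238_at averaged 4.32 against 5.03 and 4.40 against 5.10 in the same order. Both lie near the limit of 5.

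TPX2, which activates Aurora A and nucleates microtubules, had levels of 10.72, 10.09 and 9.89 in EVI1 ATRA, 10.64, 10.43 and 10.52 in EVI1 DMSO, 10.72, 10.53 and 10.44 in vector ATRA and 10.70, 10.48 and 10.65 in vector DMSO. The EVI1 ATRA arrays of replicates 2 and 3 were below all others, and that of replicate 1 tied with the highest. NUSAP1, which bundles microtubules near chromosomes, read 12.39, 11.95 and 11.80 in EVI1 ATRA, 12.01, 12.05 and 12.09 in EVI1 DMSO, 12.41, 12.33 and 12.38 in vector ATRA and 12.11, 11.98 and 12.17 in vector DMSO. Its vector ATRA arrays all lay above its vector DMSO arrays, the 1 member for which ATRA was higher without overlap in vector cells, yet adjusted p was 0.301 (0.121 in the paired fit). PRC1, which bundles the central spindle, and HMMR, a spindle protein and hyaluronan receptor, were lower in EVI1 than in vector cells under ATRA in the paired fit alone (-0.40 and -0.38). DLGAP5, a spindle protein, passed in no comparison.

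Cyclins A and B switch on CDK1, the kinase that starts mitosis. CCNA2, cyclin A2, had levels of 11.15, 10.81 and 10.46 in EVI1 ATRA, 11.37, 11.25 and 11.08 in EVI1 DMSO, 11.26, 11.16 and 11.17 in vector ATRA and 11.46, 11.42 and 11.46 in vector DMSO. In vector cells its ATRA arrays lay wholly below its DMSO arrays, whose 3 values spanned 11.42 to 11.46, and in EVI1 cells the ATRA array of replicate 1 overlapped the DMSO arrays. The ATRA difference was -0.43 ± 0.15 in EVI1 cells and -0.25 ± 0.15 in vector cells. It passed when averaged, as given above, and in EVI1 cells in the paired fit (adjusted p = 0.0139, against 0.0759 in the fit of group means). CCNB1, cyclin B1, read 11.48, 11.05 and 10.63 in EVI1 ATRA, 11.66, 11.21 and 11.07 in EVI1 DMSO, 11.68, 11.26 and 11.14 in vector ATRA and 11.71, 11.32 and 11.44 in vector DMSO. Within every group replicate 1 was the highest, and the groups overlapped in each comparison, none of which passed. CCNB2, cyclin B2, ranged from 11.50 to 12.16 over the 12 arrays and passed in none either.

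CDK1 levels were 11.71, 11.50 and 11.35 in EVI1 ATRA, 11.58, 11.73 and 11.77 in EVI1 DMSO, 11.87, 11.90 and 12.07 in vector ATRA and 11.64, 11.57 and 11.92 in vector DMSO. Every EVI1 ATRA value was below every vector ATRA value, while the DMSO arrays of the EVI1 and vector cells overlapped. The EVI1 minus vector difference was -0.43 ± 0.13 under ATRA, with an adjusted p of 0.0739 (0.0232 in the paired fit), and -0.02 ± 0.13 under DMSO. CDK1 and its activator cyclin A2 thus both fell in EVI1 ATRA relative to vector ATRA cells in the paired fit, where CCNA2 fell by 0.39 on the log2 scale (adjusted p = 0.0303).

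The mitotic kinases act beside CDK1. PLK1, the Polo kinase of centrosome maturation and mitotic entry, read 7.59, 7.10 and 6.80 in EVI1 ATRA, 7.85, 7.25 and 7.23 in EVI1 DMSO, 8.13, 7.51 and 7.54 in vector ATRA and 8.48, 7.72 and 7.83 in vector DMSO. At each replicate number the value was lowest in EVI1 ATRA and highest in vector DMSO, and replicate 1 was the highest in every group. Under both agents EVI1 was lower than vector by a like amount (-0.56 ± 0.27 under ATRA and -0.57 ± 0.27 under DMSO), and ATRA was lower than DMSO in both populations (-0.28 in EVI1 cells and -0.28 in vector cells). None of these passed in the fit of group means (adjusted p from 0.252 to 0.667), and all passed in the paired fit (adjusted p from 0.00150 to 0.0376). Replicate numbers held 46.8% of its variance, groups 51.0% and the rest 2.21%.

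AURKB, the kinase of the chromosomal passenger complex, had levels of 9.59, 8.77 and 8.62 in EVI1 ATRA, 9.70, 9.10 and 9.30 in EVI1 DMSO, 9.79, 9.30 and 9.37 in vector ATRA and 9.55, 9.01 and 9.38 in vector DMSO. EVI1 ATRA replicates 2 and 3 were the lowest of the 12, while replicate 1 of that group lay above 2 of the 3 vector ATRA values. It was lower in EVI1 ATRA than in vector ATRA (-0.49 ± 0.25) and than in EVI1 DMSO (-0.37 ± 0.25) in the paired fit alone (adjusted p = 0.0170 and 0.0389). AURKA, the kinase of the spindle poles, read 11.03, 10.59 and 10.28 in EVI1 ATRA, 11.01, 10.63 and 10.58 in EVI1 DMSO, 11.18, 10.82 and 10.82 in vector ATRA and 10.99, 10.69 and 10.87 in vector DMSO. Its groups overlapped in all 4 comparisons and none passed. NEK2, a centrosome kinase, stayed within 9.78 to 10.29 and passed in none.

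The spindle checkpoint holds back anaphase until chromosomes are attached, and its member BUB3 was the 1 gene of the set called higher with ATRA. BUB3 levels (probe set 209974_s_at) were 12.04, 12.10 and 12.24 in EVI1 ATRA, 11.72, 11.87 and 11.78 in EVI1 DMSO, 12, 12.19 and 12.27 in vector ATRA and 12.05, 11.96 and 11.99 in vector DMSO. All 3 EVI1 ATRA values lay above all 3 EVI1 DMSO values, whereas in vector cells ATRA and DMSO overlapped. Of the 5 other tested probe sets of BUB3, 201456_s_at, 201457_x_at, 201458_s_at and 237245_at had ATRA minus DMSO differences of 0.36 to 0.52 in EVI1 cells and 229827_at one of 0.03. In vector cells 201457_x_at, 201458_s_at and 201456_s_at were higher with ATRA by 0.33, 0.34 and 0.36 and passed in the paired fit (adjusted p = 0.0105, 0.0109 and 0.00912), where the chosen one gave 0.15 and did not pass. Within groups, BUB3 deviated against the rest of the set (r = -0.63 with the median of the other members over 12 arrays that share groups), while this r was over 0.7 for 34 of the 41. MAD2L1, the checkpoint protein that binds CDC20, read 11.27, 11.20 and 10.88 in EVI1 ATRA, 11.40, 11.76 and 11.48 in EVI1 DMSO, 11.31, 11.72 and 11.55 in vector ATRA and 11.66, 11.93 and 11.67 in vector DMSO. The EVI1 ATRA arrays lay below the EVI1 DMSO and the vector ATRA arrays without overlap, and vector ATRA overlapped vector DMSO. Its difference was -0.43 ± 0.15 for ATRA in EVI1 cells and -0.41 ± 0.15 for EVI1 under ATRA, both past the threshold in the paired fit alone (adjusted p = 0.0100 and 0.0197).

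BUB1, a checkpoint kinase, had levels of 10.38, 10.04 and 9.73 in EVI1 ATRA, 10.27, 10.25 and 10.33 in EVI1 DMSO, 10.50, 10.43 and 10.49 in vector ATRA and 10.55, 10.38 and 10.65 in vector DMSO. Both EVI1 groups lay below the vector group of the same agent without overlap, with EVI1 minus vector differences of -0.42 ± 0.14 under ATRA (adjusted p = 0.109, 0.0367 in the paired fit) and -0.24 ± 0.14 under DMSO (adjusted p = 0.679). TTK, the kinase that starts checkpoint signalling, read 10.04, 9.48 and 9.46 in EVI1 ATRA, 9.78, 9.56 and 9.63 in EVI1 DMSO, 10.02, 9.84 and 10.03 in vector ATRA and 9.82, 9.56 and 9.85 in vector DMSO. EVI1 ATRA replicate 1 exceeded every vector ATRA value, so those groups overlapped, and no comparison passed. BUB1B, which encodes BUBR1, was lower in EVI1 than in vector cells under ATRA in the paired fit alone (-0.56; adjusted p = 0.0186).

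Kinetochore proteins tie chromosomes to microtubules. CENPF, a large protein of the outer kinetochore, stood out in EVI1 DMSO cells. Its levels were 10.54, 9.69 and 9.68 in EVI1 ATRA, 10.51, 10.09 and 10.38 in EVI1 DMSO, 10.31, 9.45 and 9.94 in vector ATRA and 9.95, 9.46 and 9.89 in vector DMSO. Every EVI1 DMSO value exceeded every vector DMSO value, by 0.56, 0.63 and 0.49 at replicates 1, 2 and 3, while the ATRA arrays overlapped. The difference under DMSO was 0.56 ± 0.26, with an adjusted p of 0.516 in the fit of group means and 0.0351 in the paired fit; the other tested probe set, 209172_s_at, gave 0.45 and did not pass in either. CENPE, the kinetochore kinesin, read 9.26, 8.15 and 8.15 in EVI1 ATRA, 8.90, 8.21 and 8.63 in EVI1 DMSO, 9.53, 8.79 and 9.07 in vector ATRA and 9.06, 8.56 and 8.98 in vector DMSO. Its EVI1 ATRA values split, with replicate 1 within the range of the vector ATRA arrays and replicates 2 and 3 equal and the lowest of all.

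NDC80, the kinetochore protein that grips microtubules, had levels of 9.96, 9.24 and 9.04 in EVI1 ATRA, 9.83, 9.5 and 9.56 in EVI1 DMSO, 10.22, 9.80 and 9.92 in vector ATRA and 9.90, 9.67 and 9.89 in vector DMSO. EVI1 ATRA replicates 2 and 3 were again the lowest of the 12. Under ATRA, EVI1 minus vector was -0.61 ± 0.30 for CENPE and -0.57 ± 0.21 for NDC80, and both passed in the paired fit alone (adjusted p = 0.0163 and 0.0131). SPC25, a partner of NDC80, was the remaining kinetochore gene lower in the paired fit (-0.50, adjusted p = 0.0351). That is 3 of 6 in all, where 12.3% of all genes were lower in the paired fit. CENPA, the histone that marks centromeres, and NUF2, another NDC80 partner, had differences of -0.27 and -0.18 and passed in neither fit.

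The chromosomal passenger complex corrects attachments and guides cytokinesis, with AURKB as its kinase. BIRC5, which encodes survivin, read 10.34, 9.97 and 9.32 in EVI1 ATRA, 10.44, 10.26 and 9.99 in EVI1 DMSO, 10.54, 10.47 and 10.13 in vector ATRA and 10.54, 10.42 and 10.33 in vector DMSO. EVI1 ATRA replicate 3 was well below the other 11 arrays, and replicate 1 of that group lay within the vector ATRA range. It was lower in EVI1 than in vector cells under ATRA in the paired fit (-0.50 ± 0.22; adjusted p = 0.0167). CDCA8, which encodes borealin, and INCENP, the scaffold, passed in no comparison. INCENP, the tested member of lowest signal, stayed between 6.05 and 6.45.

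Kinesins move along microtubules and shape the spindle. KIF11, the motor that pushes spindle poles apart, had levels of 10.16, 9.98 and 9.64 in EVI1 ATRA, 9.87, 10.02 and 10.04 in EVI1 DMSO, 10.21, 10.43 and 10.36 in vector ATRA and 10.07, 10.00 and 10.21 in vector DMSO. The EVI1 ATRA arrays lay below the vector ATRA arrays without overlap, narrowly so at 10.16 against 10.21, and overlapped the EVI1 DMSO arrays. KIF23, a motor of the central spindle, read 9.29, 8.87 and 8.59 in EVI1 ATRA, 9.5, 9.38 and 9.30 in EVI1 DMSO, 9.45, 9.20 and 9.41 in vector ATRA and 9.63, 9.32 and 9.44 in vector DMSO. Its EVI1 ATRA values were below all EVI1 DMSO values. For ATRA in EVI1 cells KIF23 differed by -0.48 ± 0.16 (adjusted p = 0.0676, 0.00814 in the paired fit). Under ATRA, EVI1 minus vector was -0.41 for KIF11, -0.44 for KIF23 and -0.38 for KIF20A, a motor of cytokinesis, each past the threshold in the paired fit alone. KIF2C, which depolymerises microtubules, and KIF4A, a chromosome motor, differed by -0.35 and -0.34 and did not pass.

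Anaphase needs the ubiquitin ligase APC/C, its activator CDC20 and its enzyme UBE2C, which release separase (ESPL1) from securin (PTTG1). CDC20 levels were 11.80, 11.22 and 10.66 in EVI1 ATRA, 11.94, 11.38 and 11.24 in EVI1 DMSO, 12.10, 11.77 and 11.53 in vector ATRA and 12.11, 11.83 and 11.70 in vector DMSO. In each group replicate 1 was the highest and replicate 3 the lowest, and EVI1 ATRA replicate 3 was the lowest of the 12. UBE2C read 10.58, 10.06 and 9.64 in EVI1 ATRA, 10.53, 10.10 and 10.04 in EVI1 DMSO, 10.75, 10.42 and 10.38 in vector ATRA and 10.42, 10.14 and 10.21 in vector DMSO. ESPL1 read 10.74, 9.82 and 9.59 in EVI1 ATRA, 10.47, 10.06 and 10.27 in EVI1 DMSO, 10.86, 10.33 and 10.37 in vector ATRA and 10.53, 10.07 and 10.30 in vector DMSO. In both genes the EVI1 ATRA values spanned a wide range, from near the vector ATRA maximum at replicate 1 to the lowest of all at replicate 3. EVI1 minus vector under ATRA was -0.57 ± 0.27 for CDC20, -0.42 ± 0.21 for UBE2C and -0.47 ± 0.26 for ESPL1, with adjusted p of 0.00705, 0.0241 and 0.0438 in the paired fit and of 0.249, 0.293 and 0.341 in the fit of group means. PTTG1 was lower with ATRA in EVI1 cells in the paired fit (-0.34; adjusted p = 0.00685).

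The protein of MKI67, the proliferation antigen Ki-67, coats mitotic chromosomes, and TOP2A untangles them. MKI67 levels were 9.92, 8.49 and 8.82 in EVI1 ATRA, 9.88, 9.40 and 9.75 in EVI1 DMSO, 10.28, 9.44 and 9.91 in vector ATRA and 10.05, 9.19 and 10.06 in vector DMSO. EVI1 ATRA replicates 2 and 3 were the lowest of the 12, while replicate 1 was among the higher ones. The spread of MKI67 within groups was wide, with SDs of 0.25 to 0.75, and its difference of -0.80 ± 0.35 for EVI1 under ATRA had an adjusted p of 0.217 (0.0110 in the paired fit), and that of -0.60 ± 0.35 for ATRA in EVI1 cells one of 0.3 (0.0263 in the paired fit). TOP2A read 11.88, 11.80 and 11.59 in EVI1 ATRA, 11.60, 11.86 and 11.88 in EVI1 DMSO, 11.82, 12.04 and 12.07 in vector ATRA and 11.83, 11.87 and 11.91 in vector DMSO. It varied little, its groups overlapped and no comparison passed. The cytokinesis genes ECT2, an activator of RhoA, and ANLN, a scaffold of the contractile ring, also passed in none; ANLN was 1 of the 2 members not lower in EVI1 than in vector cells under ATRA (0.07), with CENPF (0.07) as the other.

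**Figure D4:**
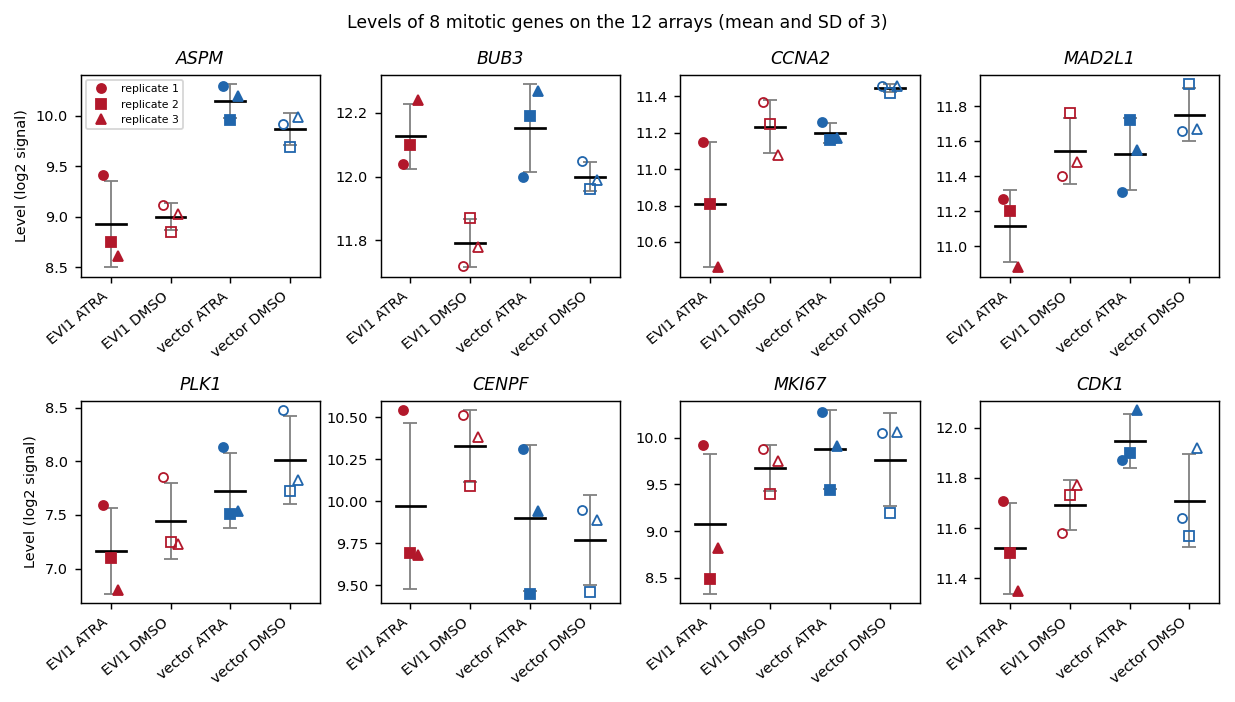
Levels (log2 signal, vertical axes) of 8 of the genes in the 4 groups; symbols are the replicate numbers (circle 1, square 2, triangle 3), bars the mean and whiskers the SD of 3 arrays. ASPM is lower on all 6 EVI1 arrays than on all 6 vector arrays, BUB3 is higher in EVI1 ATRA than in EVI1 DMSO, and MKI67 and PLK1 are highest at replicate 1 in nearly every group.

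How the genes varied together was a shared pattern over replicate numbers. Differences between groups held a median of 36.0% of the variance of a member, replicate numbers 39.9% and the rest 20.4%, against 42.5%, 30.0% and 16.0% over all tested genes. Replicate 1 was the highest in all 4 groups for 23 of the 41 genes (56.1%), against 21.7% of all genes. What the replicate numbers stand for in the laboratory is not given in the sources used here, and a cause of the pattern was not tested.

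Other probe sets of the same genes were read as a check. The 42 genes have 86 probe sets, and 35 of the 44 not chosen reached the limit. In the comparison of EVI1 with vector under ATRA, a tested probe set differed in sign from the chosen one for CCNB2 and BUB3, and in that of EVI1 with vector under DMSO for MKI67, CDK1, AURKB, BUB1, BUB3, MAD2L1, KIF23, NUSAP1 and ECT2. For ATRA against DMSO this was so for TOP2A, CCNB2, AURKA and ANLN in EVI1 cells and for AURKA, AURKB, BUB1, MAD2L1, KIF23 and ECT2 in vector cells. Averaged over both populations it was so for CDK1, AURKA, NEK2, BUB1 and ASPM. None of the probe sets of opposite sign passed in that comparison in either fit. The probe set 1554768_a_at of MAD2L1 fell with ATRA in EVI1 cells by 0.54 on the log2 scale in the fit of group means over all 26235 tested probe sets (limma adjusted p = 0.0447). In that fit the chosen probe set of ASPM had a limma adjusted p of 0.00602 under ATRA and 0.0582 under DMSO. That of BUB3 had one of 0.0589 for ATRA in EVI1 cells, while 201458_s_at (0.42, adjusted p = 0.0300) and 201456_s_at (0.52, 0.0386) of BUB3 passed. The chosen one of MAD2L1 did not pass for ATRA averaged over both populations (limma adjusted p = 0.0518). In the paired fit over these probe sets, KIF20A did not pass for EVI1 under ATRA (limma adjusted p = 0.0577). Nor did PLK1 for ATRA in vector cells (0.0515).

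Other genes of the same phase were read as a list of 78, of which 77 had a probe set and were tested. Under ATRA, EVI1 cells had 4 of the 77 lower than vector cells and 0 higher: ZW10, a checkpoint adaptor (-0.44), WEE1, the kinase that restrains CDK1 (-0.56), DSN1, a kinetochore protein (-0.59), and DEPDC1B (-0.48). The paired fit had 35 lower and 0 higher. Of all genes 2.33% were lower in the fit of group means and 12.3% in the paired fit. The median of the list was -0.36 with 75 of 77 negative, against 52% of all genes. ATRA lowered 7 of them in EVI1 cells (30 lower and 2 higher in the paired fit), where 7.66% of all genes were lower (19.4% in the paired fit, with 16.3% higher). Of the 7, MIS18A (-0.62), TRIP13 (-0.90), SKA3 (-0.76), SMC4 (-0.47) and UBE2S (-0.52) had the smallest p. In vector cells the limma fit of group means called 0 with ATRA, with 6 at an unadjusted p under 0.05 (3 higher and 3 lower in the paired fit, against 9.96% and 10.1% of all genes), and 0 for EVI1 with DMSO, with 3 at an unadjusted p under 0.05 (2 lower in the paired fit, against 2.99% of all genes). The median of the ATRA effect was -0.24 in EVI1 cells and 0.08 in vector cells.

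Of the regulators of G2/M transcription, 23 of 24 had a probe set, and few passed in the fit of group means: 1 higher and 2 lower with ATRA in EVI1 cells (1 and 6 in the paired fit), 1 and 1 in vector cells (1 and 1), and for EVI1 against vector 1 and 1 under ATRA (3 and 8) and 1 and 0 under DMSO (2 and 0). The shares of all genes called higher and lower were 7.45% and 7.66% with ATRA in EVI1 cells (16.3% and 19.4%), 2.00% and 1.52% in vector cells (9.96% and 10.1%), 3.28% and 2.33% for EVI1 under ATRA (13.0% and 12.3%) and 0.533% and 0.682% under DMSO (4.20% and 2.99%). CDKN1A, which encodes the CDK inhibitor p21, had levels of 10.31, 10.70 and 10.91 in EVI1 ATRA, 8.75, 8.99 and 9.72 in EVI1 DMSO, 8.90, 9.20 and 9.15 in vector ATRA and 7.92, 7.56 and 8.08 in vector DMSO. The arrays did not overlap in any of these 4 comparisons. It was higher with ATRA in EVI1 cells (1.49 ± 0.24; limma adjusted p = 0.00262) and in vector cells (1.23 ± 0.24; 0.0192), and higher in EVI1 than in vector cells under ATRA (1.56 ± 0.24; 0.00447) and under DMSO (1.3 ± 0.24; 0.02). MYC, a driver of growth, read 11.13, 10.82 and 10.22 in EVI1 ATRA, 12.43, 12.67 and 12.47 in EVI1 DMSO, 11.67, 11.47 and 11.61 in vector ATRA and 12.36, 12.49 and 12.48 in vector DMSO. Its ATRA arrays lay below its DMSO arrays in both populations without overlap, and the DMSO arrays of EVI1 and vector cells overlapped. It fell with ATRA in EVI1 cells (-1.80 ± 0.18; 0.000465) and in vector cells (-0.86 ± 0.18; 0.0286), and was lower in EVI1 than in vector cells under ATRA (-0.86 ± 0.18; 0.0203), while under DMSO the difference was 0.08 ± 0.18. TFDP1, the partner of E2F factors, was the other regulator called with ATRA in EVI1 cells (-0.51).

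FOXM1, an activator of G2/M genes, had levels of 9.62, 8.75 and 8.48 in EVI1 ATRA, 9.73, 9.32 and 9.10 in EVI1 DMSO, 9.66, 9.38 and 9.16 in vector ATRA and 9.71, 9.35 and 9.36 in vector DMSO. MYBL2, the B-MYB partner of MuvB, read 9.90, 9.22 and 9.07 in EVI1 ATRA, 10.18, 9.68 and 9.81 in EVI1 DMSO, 9.90, 9.58 and 9.44 in vector ATRA and 9.91, 9.64 and 9.75 in vector DMSO. E2F1, an activator of S phase genes, read 8.25, 7.67 and 7.46 in EVI1 ATRA, 8.67, 8.10 and 8.14 in EVI1 DMSO, 8.63, 8.14 and 8.13 in vector ATRA and 8.39, 8.12 and 8.05 in vector DMSO. In all 3 genes EVI1 ATRA replicates 2 and 3 were the lowest of the 12 arrays. With ATRA in EVI1 cells they differed by -0.43 ± 0.26, -0.49 ± 0.21 and -0.51 ± 0.22, which passed in the paired fit alone (adjusted p = 0.0241, 0.00604 and 0.00148). Under ATRA, EVI1 was lower than vector in the paired fit for FOXM1 (-0.45; adjusted p = 0.0289) and E2F1 (-0.51; 0.00336), and MYBL2 differed by -0.24.

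Genes of DNA replication and the G1/S step, which act earlier in the cycle, were read for comparison, 50 of 51 with a probe set. ATRA lowered 16 of the 50 and raised 0 in EVI1 cells (36 lower and 1 higher in the paired fit), where 7.66% of all genes were lower (19.4% in the paired fit). The median was -0.52. UNG (-0.86), MCM10 (-0.99), SLBP (-0.53), CHAF1B (-0.69) and POLE2 (-0.92) had the smallest p. In vector cells limma called 0 of 50, with 2 at an unadjusted p under 0.05 (2 higher in the paired fit, against 9.96% of all genes), and the median was -0.03. Between EVI1 and vector cells, 7 of 50 were lower under ATRA (36 in the paired fit), where 2.33% of all genes were lower (12.3% in the paired fit), with GINS1 (-1.36), CHAF1B (-0.95), SLBP (-0.66), PCNA (-0.66) and UNG (-0.73) of smallest p, and 1, GINS1, under DMSO (-0.95), where 0.682% of all genes were lower. The median EVI1 minus vector difference of this list under ATRA was -0.54, with 49 of the 50 negative. The medians of the mitotic set were -0.22 for ATRA in EVI1 cells, 0.11 in vector cells and -0.38 for EVI1 under ATRA. Whether the lists differ was not tested.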

How the data were processed

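Gene expression of 12 U937 cultures was measured on Affymetrix arrays, 3 a group in 4 groups, labelled as biological replicates. The deposited table holds log2 values for 54675 probe sets. Per the submitters' processing notes the authors made them by RMA, with version 1.3 of Affymetrix Expression Console. Of these, 41097 probe sets had 1 gene symbol in the platform annotation, and 1801 with several symbols and 11777 not listed there were left out. A gene took the probe set of highest mean over the 12 arrays, giving 19775 genes. Testing kept the 14080 genes whose log2 value reached 5 on 3 or more arrays and left out 5695, CDC25C among them. Group means of all 12 arrays were fitted with limma 3.58.1 (lmFit and eBayes, 8 residual degrees of freedom) in R 4.3.3. The fit was tested on simulated data with independent errors, so without the shared deviations of same-numbered arrays. P-values were adjusted by Benjamini-Hochberg over all 14080 genes for each of 6 comparisons, with a threshold of 0.05. Array values give no read depth, and the 3 arrays a group limit the precision. Nothing in the labels says beyond the word biological how the replicates were raised, so p-values measure the spread between these samples.

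The labels give all groups the replicate numbers 1 to 3. Deviations from the group means correlated between same-numbered arrays with r of 0.408 to 0.704 over all tested genes, and between other arrays with at most 0.164, so the numbers were taken as pairing the samples. The paired fit adds the number as a block (6 residual degrees of freedom). The 42 genes and the other lists were chosen with earlier results of these data known. Values on every array are given for 16 members named in advance of the fits (MKI67, TOP2A, CCNB1, CDK1, PLK1, AURKA, CDC20, BUB1, TTK, CENPE, NDC80, BIRC5, KIF11, TPX2, UBE2C and ESPL1). They are also given for members called in the fit of group means and for the 3 largest differences of each comparison. Of other lists, they are given for FOXM1, MYBL2, CDKN1A, E2F1 and MYC, with up to 5 called genes of smallest p named. Alternatives were other limits, normalizations, probe set summaries, fits and left-out arrays.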

Additional observations from a re-analysis of the deposited data

How the results depend on the processing

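No median of the 41 genes and no named difference changed sign under the alternatives that kept all 12 arrays, and no value reversed once called. Counts of members called moved as follows. With the replicate block, 8 genes were called for ATRA in EVI1 cells, 1 in vector cells and 6 averaged, and 21 for EVI1 against vector under ATRA and 3 under DMSO; the block changed no other call of the comparisons reported beyond those given with the results. Array weights gave 6 for ATRA in EVI1 cells, 18 for EVI1 under ATRA and a median ATRA difference of 0.00556 in vector cells. Without a filter on low values, with arrays shifted to a common median, or with only the groups compared, 0 genes were called for ATRA in EVI1 cells, and the mean of all probe sets or quantile normalization gave 2. For EVI1 under DMSO, no filter, the mean of probe sets and the common median each gave 0. A trended, robust eBayes gave 2 for EVI1 under ATRA. Leaving out 1 array or 1 replicate number, in the fit of group means and, as chosen after seeing the data, in the paired fit, gave these ranges of calls: 0 to 20 for ATRA in EVI1 cells, 0 to 3 in vector cells, 0 to 15 averaged, 0 to 31 for EVI1 under ATRA, 0 to 4 under DMSO and 0 to 2 for the interaction. The medians ranged from -0.43 to -0.01 for ATRA in EVI1 cells, 0 to 0.19 in vector cells, -0.17 to 0.08 averaged (above 0 without EVI1 ATRA replicate 3 or replicate number 3), -0.55 to -0.20 for EVI1 under ATRA, -0.16 to -0.00667 under DMSO and -0.46 to -0.0783 for the interaction. The ASPM difference lay between -1.47 and -0.98 under ATRA (adjusted p 7.89e-05 to 0.151, past 0.05 only without replicate number 2 or 3) and between -0.96 and -0.80 under DMSO (0.00399 to 0.529). BUB3 with ATRA in EVI1 cells lay between 0.28 and 0.39 (0.00839 to 0.319). Averaged over both cell populations, ATRA gave BUB3 0.18 to 0.30 (0.00334 to 0.273), CCNA2 -0.42 to -0.25 (0.00397 to 0.304) and MAD2L1 -0.38 to -0.27 (0.00552 to 0.211). Shares of all genes called are given for the replicate block alone among these alternatives. The other counts are therefore not read as particular to the set. The cause of these changes was not tested. Fits with arrays left out also had fewer samples.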

Other observations

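The tested genes nearest to ASPM in order on chromosome 1 were read after its values had been seen, with names and order taken from the RefSeq table for GRCh38.p14. RGS2, a regulator of G protein signalling and the fifth tested gene on one side, read 6.71, 6.33 and 6.46 in EVI1 ATRA, 6.74, 6.79 and 6.79 in EVI1 DMSO, 7.92, 7.83 and 7.82 in vector ATRA and 7.71, 7.59 and 7.81 in vector DMSO. As with ASPM, all 6 EVI1 values lay below all 6 vector values. The EVI1 minus vector difference of RGS2 was -1.36 ± 0.11 under ATRA (limma adjusted p = 6.16e-05) and -0.93 ± 0.11 under DMSO (limma adjusted p = 0.00148). Of the tested genes between RGS2 and ASPM, UCHL5 differed by -0.50 under ATRA (limma adjusted p = 0.0488). ZBTB41, the nearest tested gene on the other side, differed by -0.56 under ATRA and -0.67 under DMSO and passed in the paired fit alone (limma adjusted p = 0.00800 and 0.00718). Not all of these genes were lower in EVI1 cells. Under ATRA the differences of DENND1B (0.57) and PTPRC (0.50) were positive and passed in the paired fit alone (limma adjusted p = 0.00540 and 0.0145), as did the negative one of C1orf53 (-0.49; 0.00540). RO60, CDC73, NEK7 and GLRX2 differed by 0.16, 0.18, 0.16 and -0.03 under ATRA and passed in neither fit. Under DMSO, none of UCHL5, RO60, GLRX2, CDC73, DENND1B, C1orf53, NEK7 and PTPRC passed in either fit.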
